A study of Mus musculus with 14 samples.

Results

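The myelin structure genes described here are 9 genes of the myelin sheath, its lipids or the cells that make it. They are Mbp, Mog, Mag, Mobp, Cnp, Mal, Fa2h, Tspan2 and Ppp1r14a. For each, the H3K4me3 summits inside the annotated gene or within 2 kb of it were taken from a table of 153207 summits, a summit being the position of highest read density within a peak. The genes were chosen by name, and no measured value entered the rule. In all, 64 summits belonged to 7 of the 9 genes, and all 64 passed the filter on low values. Cnp had 15 summits, Mbp 13, Mal 11, Tspan2 9, Fa2h 6, and Mag and Ppp1r14a 5 each. Mog and Mobp had no summit and are therefore described by their promoter sequence alone.

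All groups were grown male mice of the strain C57BL/6J, 10 to 12 weeks old and with no transgene or deletion named in the labels, and the tissue was prefrontal cortex. The control group (3 libraries) lived in divided cages and met no aggressor. The SDS10 group (5 libraries) met an unfamiliar aggressive CD1 mouse daily for 10 days and the SDS30 group (5 libraries) for 30 days, each living beside a CD1 mouse behind a perforated barrier between encounters. Defeated mice were killed 24 hours after the last encounter, following behavioural tests that the labels place near the end of each series. The labels do not say whether each library came from a separate mouse, so the p-values measure the spread between libraries, which may in part be technical. All libraries share 1 batch date. In tissue made of many cell types, the number of oligodendrocytes, the mark per oligodendrocyte and the mark in other cells cannot be told apart.

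Oligodendrocytes wrap axons in layers of membrane that are pressed together into compact myelin. Mbp joins the cytoplasmic faces of the layers, Mobp is a further protein of compact myelin, Mog sits on the outermost layer, Mag on the layer facing the axon, and Cnp keeps channels of cytoplasm open. Mal and Fa2h serve the lipids of the sheath: Mal is a membrane protein that sorts proteins and lipids to myelin, and Fa2h makes the 2-hydroxy fatty acids of myelin galactolipids. Tspan2 is a tetraspanin of myelinating cells, and Ppp1r14a encodes an inhibitor of myosin phosphatase that is abundant in oligodendrocytes. H3K4me3, trimethylation of lysine 4 of histone H3, marks nucleosomes around the starts of genes in use and is also common at CpG-rich promoters.

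The promoters of genes with and without summits are shown to let their CpG content be compared. The bases are the 250 before the annotated start, taken from RefSeq on the build GRCm38.p6, 5′ to 3′ on the strand of the gene, and capitals mark CpG pairs. Mog (minus strand) is from chr17:37023399-37023648, Mobp (plus strand) from chr9:120149492-120149741, Mal (minus strand) from chr2:127656696-127656945, Tspan2 (plus strand) from chr3:102734520-102734769 and Ppp1r14a (plus strand) from chr7:29289070-29289319.
Mog: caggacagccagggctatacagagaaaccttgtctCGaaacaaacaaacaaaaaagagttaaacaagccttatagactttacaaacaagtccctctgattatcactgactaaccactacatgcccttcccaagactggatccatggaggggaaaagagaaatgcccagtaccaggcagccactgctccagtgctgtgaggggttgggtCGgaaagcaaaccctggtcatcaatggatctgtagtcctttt
Mobp: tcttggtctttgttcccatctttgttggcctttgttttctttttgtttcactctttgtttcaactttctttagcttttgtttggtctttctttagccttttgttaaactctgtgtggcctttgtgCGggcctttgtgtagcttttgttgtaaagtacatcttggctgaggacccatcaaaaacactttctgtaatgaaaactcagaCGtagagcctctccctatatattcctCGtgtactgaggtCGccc
Mal: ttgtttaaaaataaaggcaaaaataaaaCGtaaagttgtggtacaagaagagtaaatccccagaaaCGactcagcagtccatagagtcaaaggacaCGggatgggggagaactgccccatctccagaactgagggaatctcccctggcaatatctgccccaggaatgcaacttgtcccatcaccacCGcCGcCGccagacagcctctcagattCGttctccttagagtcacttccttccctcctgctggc
Tspan2: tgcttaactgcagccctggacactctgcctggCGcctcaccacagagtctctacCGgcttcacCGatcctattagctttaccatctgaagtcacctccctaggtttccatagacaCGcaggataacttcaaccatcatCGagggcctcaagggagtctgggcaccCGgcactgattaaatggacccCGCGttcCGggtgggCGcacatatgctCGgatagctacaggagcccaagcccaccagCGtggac
Ppp1r14a: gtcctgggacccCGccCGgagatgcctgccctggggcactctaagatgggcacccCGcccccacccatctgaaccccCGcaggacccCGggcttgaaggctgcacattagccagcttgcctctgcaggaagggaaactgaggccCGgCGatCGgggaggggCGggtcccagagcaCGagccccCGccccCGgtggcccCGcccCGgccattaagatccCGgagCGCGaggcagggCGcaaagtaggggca

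The printed bases hold 2 CpG pairs at Mog, 4 at Mobp, 7 at Mal, 12 at Tspan2 and 18 at Ppp1r14a. Over the window from 250 bases before to 50 after a start, the genes without a summit were the poorest in CpG apart from Mag: 3 pairs at Mog and 5 at Mobp, against 8 at Mal, 17 at Cnp, 17 and 19 at the annotated starts of Tspan2 and 25 at Ppp1r14a. Mag, with 3 starts in the table, had 3 to 6. The median over 32851 windows was 7 pairs, with quartiles of 3 and 20. Mbp and Fa2h have no entry.

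Across 5402 protein-coding genes with 0 to 5 CpG pairs in this window, taking for each gene the start with most pairs, 10.2% had a summit within 2 kb of the start. The share was 53.7% of 2004 genes with 6 to 10 pairs, 93.1% of 3698 genes with 11 to 20 and 98.6% of 6388 genes with 21 or more. Mog and Mobp thus fell in the class where most genes had no summit. Cnp, Tspan2 and Ppp1r14a fell in classes where nearly every gene had one.

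**Figure D1:**
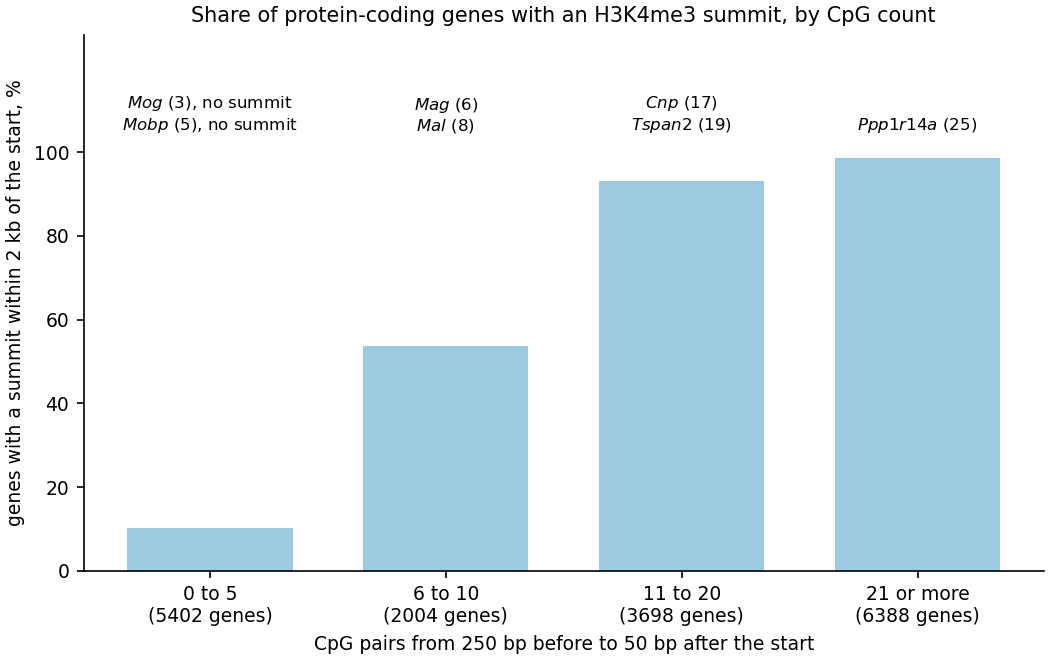
Share of protein-coding genes with an H3K4me3 summit within 2 kb of the annotated start (vertical axis, percent), in 4 classes by the number of CpG pairs around the start (horizontal axis). The share goes from 10.2% to 98.6%, and the 7 myelin structure genes with a promoter entry are written above their class with their highest count.

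Short motifs were also searched on both strands of the same windows. The letters ACAAAG, a core that Sox factors bind, occurred 6 times at Mobp and once each at Mag and Cnp, and 18.7% of the 32851 windows held at least 1 match. CTGGCAC, a core bound by the myelin factor Myrf, occurred once each at Mag and Cnp, against 5.01% of windows. GGGCGG, the GC box, occurred 5 times at Ppp1r14a and 2 times at Cnp, against 35.7% of windows. CCAAT occurred once at Mag (37.4% of windows), and no window of the 7 genes held TATAAA (13.6%) or CAGCTG, an E-box that Olig factors can bind (16.3%). These are matches of letters in a window and not measured binding.

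The libraries held 4512817 to 10887911 reads on summits, and 1 read was worth 0.699 to 1.69 units of the normalised signal. Between libraries of 1 group, the spread of reads was 1.81 to 3.59 times that of sampling alone, so none was a copy of another. Of the cell type genes compared alongside, 12 of 12 excitatory neuron genes, 12 of 12 astrocyte genes, 12 of 12 endothelial genes and 10 of 12 inhibitory neuron genes had a summit, but only 5 of 12 microglia genes did. The median signal at the strongest summits of these lists in control was 47.3 ± 2.60 (SD, n = 3) for excitatory neuron genes and 18.4 ± 1.10 for microglia genes.

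The strongest summit of a gene, the one with the highest mean log2 signal over the 13 libraries, was used to set the genes beside each other. Distances are counted from the end of the annotated gene where transcription starts, with a minus sign before it. Mbp and Fa2h have no promoter entry, so theirs are counted from the gene boundary nearer to the strongest summit. The closeness of that summit to the boundary is therefore in part set by this choice. Signal is given per summit and not per length, and the window in which the reads were counted is not given in the sources used here. In control, Tspan2 had the highest signal at 101 ± 5.15 (SD, n = 3), followed by Cnp (88.8 ± 7.06), Mbp (87.1 ± 11.2), Ppp1r14a (78.1 ± 7.91), Fa2h (74.9 ± 19.8), Mal (58.5 ± 7.07) and Mag (26.6 ± 14.7). The control values of neighbours in this order overlapped, except between Tspan2 and Cnp and between Mal and Mag. Over all 13 libraries, every pair of neighbours overlapped. Against the strongest summits of 15201 protein-coding genes, whose control median was 99.0 with quartiles of 68.8 and 118, Tspan2 stood at percentile 52.6, Cnp at 39.3, Mbp at 37.8, Ppp1r14a at 30.6, Fa2h at 28.6, Mal at 19.4 and Mag at 4.49.

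**Figure D2:**
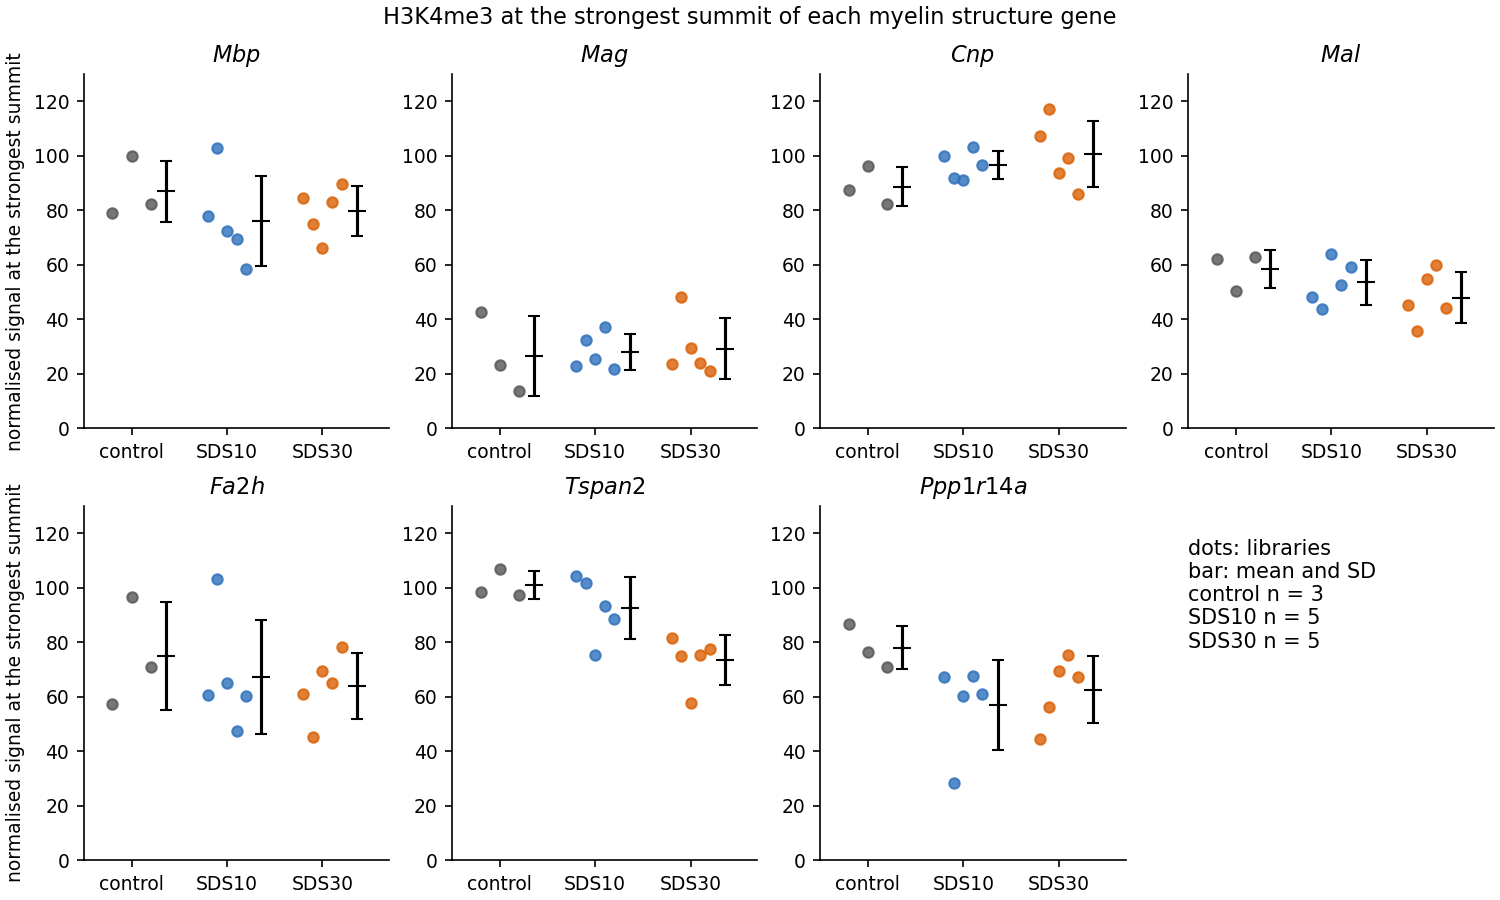
Normalised signal (vertical axis, from 0) at the strongest summit of the 7 genes, with 1 dot per library for control (n = 3), SDS10 (n = 5) and SDS30 (n = 5) and a bar for the mean and SD. At Tspan2 all 5 SDS30 libraries (57.8 to 81.4) lie below the 3 control libraries (97.4 to 107), and at Ppp1r14a all 5 SDS10 libraries (28.2 to 67.8) lie below control (71.1 to 86.6).

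Mbp, the protein that compacts the sheath, carried 11 of its 13 summits between -169 and 1578 bp of the outer boundary of the annotated gene, chr18:82475091-82585637. The myelin transcripts of Mbp start deep inside this unit, whose outer part belongs to the longer Golli transcripts, and only 2 summits lay farther in, at 9840 and 84217 bp. The strongest summit, 245 bp inside, gave 79.0, 99.9 and 82.5 in control replicates 1 to 3. The SDS10 libraries, listed here and below in the order of their replicate numbers, gave 77.9, 103, 72.5, 69.5 and 58.5, and the SDS30 libraries 84.6, 74.97, 66.3, 83.0 and 89.9. SDS10 replicate 2 was the highest of all 13 and the groups overlapped. The limma log2 fold change was -0.21 ± 0.18 (SE) in SDS10 against control (unadjusted p = 0.255) and -0.13 ± 0.18 in SDS30 against control (unadjusted p = 0.482). Without 1 library these ran from -0.32 (SDS10 replicate 2) to -0.11 (control replicate 2) and from -0.19 (control replicate 1) to -0.0255 (control replicate 2).

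Along the Mbp array, the 3 summits from -169 to 245 bp had group means below control in both defeat groups. From 437 to 1040 bp inside, the means of both defeat groups were above control at every one of the 5 summits. Some of these differences were close to nil, with a log2 fold change of 0.02 at 785 bp and 0.03 at 924 bp for SDS30. Farther in, both means were below control at 1230, 1344 and 9840 bp and above it at 1578 bp. Relative to control, SDS10 was lower at 6 of the 13 summits and higher at 7, while SDS30 was lower at 7 and higher at 6. The array as a whole thus had no common direction. At 55 bp the means were 79.7 ± 11.8 in control, 70.9 ± 6.82 in SDS10 and 67.7 ± 10.3 in SDS30, and at 437 bp they were 52.3 ± 12.2, 59.9 ± 7.97 and 67.2 ± 7.50 (SD, n = 3, 5 and 5). None of the 13 summits reached an unadjusted p of 0.05 in any comparison. At the summit 84217 bp inside, which is also within 2 kb of Gm52337, the means were 23.3 ± 3.25, 25.2 ± 10.4 and 20.3 ± 4.65.

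Mag, an adhesion protein of the layer next to the axon, had its summits inside the gene, at 1493 bp and between 5812 and 6237 bp from the start, with none nearer to the start. The strongest, 5812 bp inside (chr7:30909110-30909111), gave 42.6, 23.5 and 13.8 in control. It gave 23.0, 32.5, 25.4, 37.3 and 22.0 in SDS10, and 23.5, 48.4, 29.4, 24.0 and 21.0 in SDS30. The spread within control, from 13.8 (12 reads) to 42.6, covered every defeat library but SDS30 replicate 2 (48.4). Against control the log2 fold change was 0.18 ± 0.33 in SDS10 and 0.21 ± 0.33 in SDS30, and its sign turned to -0.20 and -0.18 without control replicate 3.

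At the Mag summit nearest to the start, control gave 27.9, 38.2 and 20.6. SDS10 gave 22.1, 15.5, 19.8, 11.9 and 29.3, and SDS30 gave 21.1, 15.6, 21.0, 38.5 and 18.1. The ranges overlapped, with a log2 fold change of -0.55 ± 0.34 in SDS10 against control (limma, unadjusted p = 0.120) that ran from -0.76 (without control replicate 3) to -0.33 (without control replicate 2).

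Cnp, the enzyme that keeps cytoplasmic channels open, had its highest signal from 116 to 538 bp after the start and a low run of summits out to 3236 bp. Its strongest summit, 253 bp from the start (chr11:100575162-100575163), gave 87.3, 96.4 and 82.5 in control. SDS10 gave 100.1, 91.8, 91.3, 103 and 96.8, and SDS30 gave 107, 117, 93.6, 99.2 and 86.2. Log2 fold changes against control were 0.12 ± 0.15 in SDS10 and 0.18 ± 0.15 in SDS30, with 95% intervals of -0.18 to 0.42 and -0.13 to 0.48. Among the 7 genes Cnp had the narrowest intervals. Without 1 library the value in SDS10 ran from 0.0722 (control replicate 3) to 0.18 (control replicate 2).

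At the neighbouring Cnp summit 116 bp from the start, control gave 80.4, 106 and 97.4. SDS10 gave 104, 96.0, 81.9, 79.6 and 73.2, and SDS30 gave 93.2, 106, 88.3, 77.0 and 92.8. The groups overlapped at both summits. No Cnp summit reached an unadjusted p of 0.05, and the fold changes over the 15 summits ran from -0.45 to 0.38 in SDS10 and from -0.38 to 0.29 in SDS30 against control on the log2 scale.

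Mal, the sorting protein of myelin membranes, had its summits between -123 and 2466 bp of the start, with the highest signal at 259 and 516 bp. The strongest, at 259 bp (chr2:127656436-127656437), gave 62.2, 50.4 and 63.0 in control. SDS10 gave 48.4, 43.8, 64.0, 52.5 and 59.4, and SDS30 gave 45.4, 35.9, 54.7, 59.9 and 44.2, overlapping control. Against control, Mal had a log2 fold change of -0.13 ± 0.21 in SDS10 and -0.29 ± 0.21 in SDS30. The first ran from -0.23 (without control replicate 2) to -0.0621 (without SDS10 replicate 2).

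The Mal summit 516 bp from the start gave 79.0, 70.4 and 48.1 in control. SDS10 gave 64.0, 42.3, 50.8, 32.2 and 35.0, so 3 of its 5 libraries lay below every control library. SDS30 gave 61.9, 42.2, 57.8, 57.3 and 51.4. For SDS10 against control the log2 fold change was -0.56 ± 0.23 (limma, unadjusted p = 0.0217, adjusted p = 0.9999).

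At the Mal summit nearest to the start, 72 bp in, control gave 57.3, 34.7 and 26.4, SDS10 gave 26.2, 16.9, 24.5, 25.4 and 29.3, and SDS30 gave 29.8, 39.0, 30.5, 41.9 and 33.3. All 5 SDS30 libraries lay above all 5 SDS10 libraries, with a log2 fold change of 0.50 ± 0.24 between them (limma, unadjusted p = 0.0463, adjusted p = 0.963). SDS10 against control gave -0.62 ± 0.28 (unadjusted p = 0.0354), and -0.32 without control replicate 1, the highest of the 13 libraries there.

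Fa2h, the fatty acid hydroxylase, had 5 summits within 596 bp of its outer boundary and 1 at 26579 bp inside the gene, chr8:111345138-111393821. The strongest, 228 bp inside, gave 57.3, 96.4 and 71.1 in control. SDS10 gave 60.7, 103, 65.0, 47.4 and 60.2, and SDS30 gave 61.1, 45.3, 69.4, 65.0 and 78.3, with the groups overlapping. Fa2h had a log2 fold change of -0.17 ± 0.22 in SDS10 against control, and 0.0265 without control replicate 2. In SDS30 against control it was -0.22 ± 0.22, and without 1 library from -0.39 (control replicate 1) to -0.0223 (control replicate 2).

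The Fa2h summit at -73 bp, just outside the boundary, gave 41.2, 61.7 and 44.7 in control. SDS10 gave 64.0, 74.8, 51.8, 57.6 and 49.6, and SDS30 gave 47.8, 20.3, 38.9, 38.5 and 72.5. The log2 fold change of SDS30 against SDS10 was -0.54 ± 0.23 (limma, unadjusted p = 0.0276, adjusted p = 0.963), and -0.30 without SDS30 replicate 2, the lowest library.

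The distant Fa2h summit had little signal, 16.8, 16.5 and 16.0 in control. SDS10 gave 19.7, 22.6, 22.6, 23.7 and 30.1, and SDS30 gave 19.6, 28.1, 35.8, 20.5 and 29.7. All 10 defeat libraries thus lay above all 3 control libraries, which were close together. The log2 fold change was 0.63 ± 0.30 in SDS30 against control (limma, unadjusted p = 0.0445, adjusted p = 0.99998) and 0.49 ± 0.30 in SDS10 (unadjusted p = 0.116). Groups were apart, in either direction, at 2.98% of all summits in SDS10 against control and at 2.96% in SDS30 against control. How many summits were apart in both was not counted.

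Tspan2, the tetraspanin, had 9 summits from -427 to 1332 bp of its start, all within 2 kb of the non-coding gene Tspan2os as well, so their signal cannot be assigned to either gene. The strongest lay 580 bp after the start (chr3:102735350-102735351). Control gave 98.5, 107 and 97.4, SDS10 gave 104, 102, 75.3, 93.2 and 88.6, and SDS30 gave 81.4, 74.97, 57.8, 75.3 and 77.5. All 5 SDS30 libraries lay below all 3 control libraries, while SDS10 overlapped both. The log2 fold change of SDS30 against control was -0.46 ± 0.16, with a 95% interval of -0.79 to -0.13 (limma, unadjusted p = 0.00742, adjusted p = 0.99998). This was the smallest unadjusted p among the 64 summits in any of the 3 comparisons, and it did not pass the adjusted threshold. Without SDS30 replicate 3, the lowest library, the value was -0.38. SDS30 against SDS10 gave -0.33 ± 0.14 (unadjusted p = 0.0244, adjusted p = 0.963).

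Of the 9 Tspan2 summits, 6 had a log2 fold change below 0 in SDS30 against control and 3 above. The summit at -15 bp, inside the printed sequence, gave 81.8, 92.1 and 75.6 in control. SDS10 gave 73.0, 100.2, 74.4, 62.7 and 56.9, and SDS30 gave 71.3, 85.9, 76.8, 83.8 and 89.1, a log2 fold change of -0.03 ± 0.18 in SDS30 against control. At -247 bp the SDS30 mean (57.2 ± 14.5) was above control (50.8 ± 19.3). In SDS10 against control, 8 of the 9 summits had a log2 fold change below 0. Summed over the 9 summits, control gave 516, 562 and 436, SDS10 gave 475, 423, 399, 395 and 476, and SDS30 gave 452, 483, 435, 491 and 486. The sum had a log2 fold change of -0.21 ± 0.10 in SDS10 against control (limma, unadjusted p = 0.0415, adjusted p = 0.997), and -0.13 without control replicate 2.

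Ppp1r14a, the phosphatase inhibitor, had its strongest summit at -163 bp (chr7:29289157-29289158), inside the printed promoter and within 2 kb of the neighbouring Gm45977. Control gave 86.6, 76.4 and 71.1, SDS10 gave 67.3, 28.2, 60.2, 67.8 and 61.0, and SDS30 gave 44.6, 56.2, 69.4, 75.3 and 67.4. All 5 SDS10 libraries lay below all 3 control libraries, and SDS30 overlapped control. The log2 fold change of SDS10 against control was -0.51 ± 0.23 (95% interval -0.98 to -0.04, limma, unadjusted p = 0.0358, adjusted p = 0.9999). It was -0.28 without SDS10 replicate 2, whose value rested on 20 reads. In SDS30 against control it was -0.33 ± 0.23 (unadjusted p = 0.162), and -0.22 without SDS30 replicate 1.

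The Ppp1r14a summit nearest to the start, 112 bp in, gave 54.5, 25.2 and 28.7 in control. SDS10 gave 41.0, 21.2, 17.9, 44.0 and 41.5, and SDS30 gave 29.8, 15.6, 19.98, 34.2 and 42.0. The highest library was control replicate 1, and the groups overlapped. At 3085 bp, control gave 31.4, 8.69 and 28.7, SDS10 gave 13.1, 9.88, 8.47, 16.9 and 17.9, and SDS30 gave 17.2, 23.4, 19.98, 26.5 and 22.5, with a log2 fold change of 0.72 ± 0.33 in SDS30 against SDS10 (limma, unadjusted p = 0.0376, adjusted p = 0.963).

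**Figure D3:**
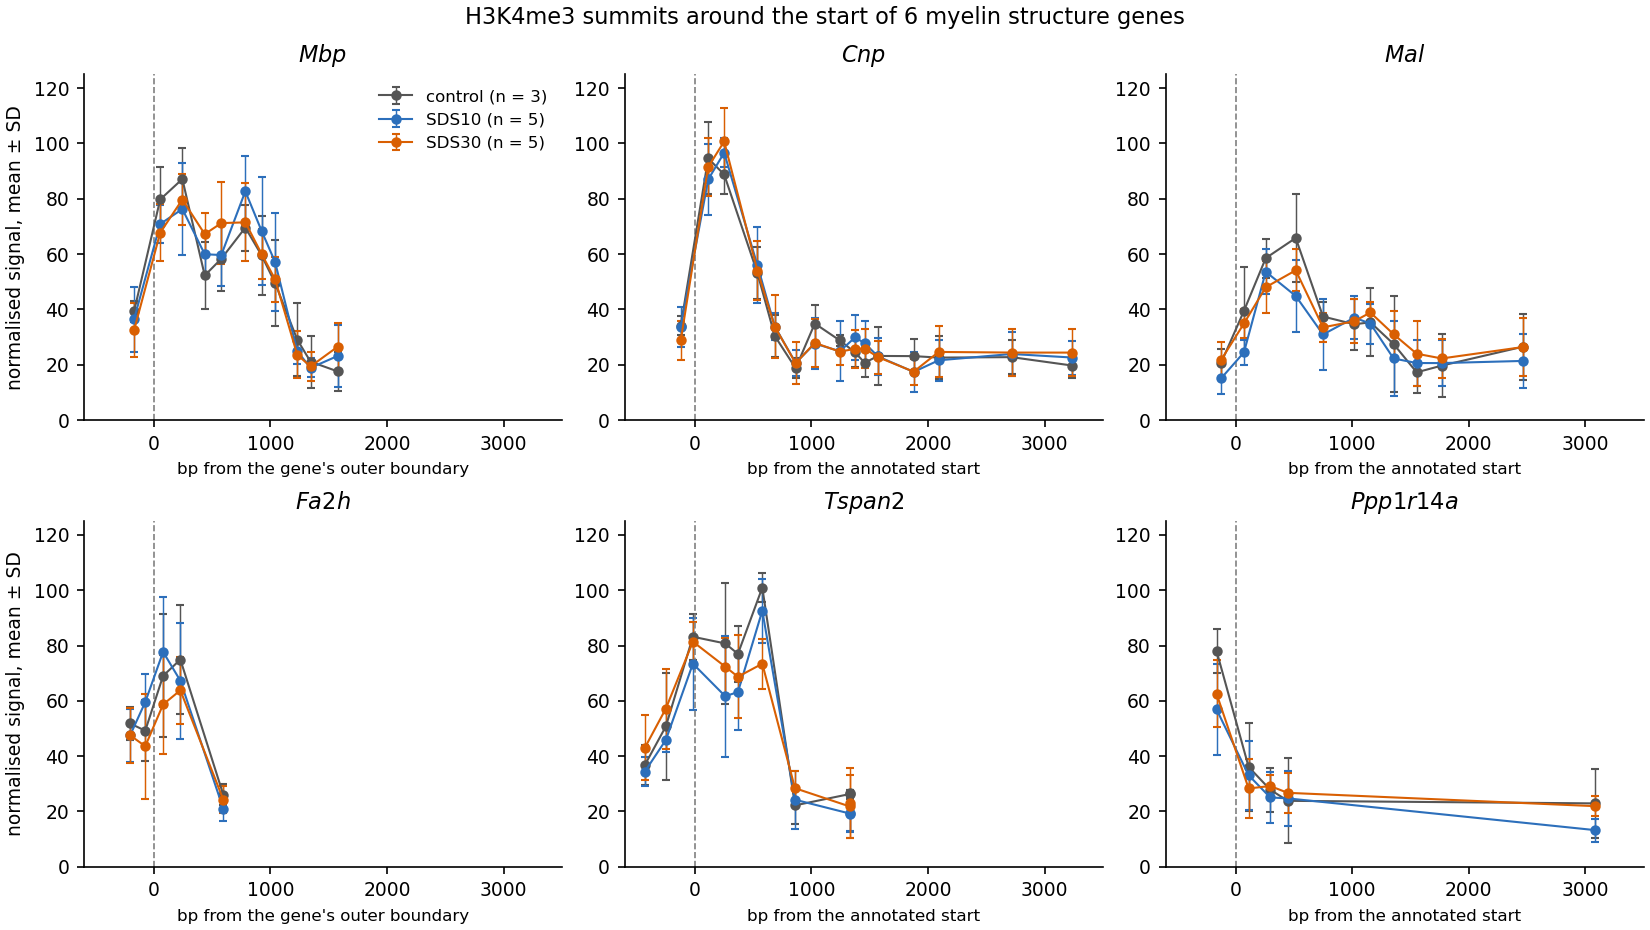
Mean normalised signal with SD (vertical axis) at the summits of 6 genes by distance from the annotated start, or from the outer boundary for Mbp and Fa2h (horizontal axis, bp), for control (n = 3), SDS10 (n = 5) and SDS30 (n = 5). The groups separate at single summits such as Tspan2 at 580 bp (101 in control, 73.4 in SDS30), while their curves overlap over most of each array.

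Neighbouring summits of these genes lay 191 bp apart in the median, close to the 187 bp over all summits. Since the counting window is not given, neighbours may share reads, and the 64 cannot be taken as independent. Between SDS10 and control, which addresses the effect of the shorter defeat series, 37 of the 64 summits (57.8%) had a log2 fold change below 0, against 49.7% of the 152270 summits tested. The median was -0.11, against 0.00 over all summits. At the strongest summits 5 of 7 genes were below 0, against 46.7% of protein-coding genes. In limma 0 of 64 member summits passed an adjusted p of 0.05, and the same test called 0% of all summits. Those with an unadjusted p under 0.05 numbered 3 of 64 (4.69%), against 3.21% of all summits, and 2 at Mal and 1 at Ppp1r14a made up the 3. The groups did not overlap at 2 of 64 summits (3.13%), against 2.98% of all summits.

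Between SDS30 and control, 32 of 64 summits had a log2 fold change below 0 (49.2% of all summits), with a median of -0.01. The strongest summits were below 0 at 5 of 7 genes, close to the 65.8% of protein-coding genes. No member summit passed the adjusted threshold, as was the case for 0% of all summits. An unadjusted p under 0.05 was reached at 2 of 64 (3.13%), 1 at Tspan2 and 1 at Fa2h, against 3.41% of all summits. Groups were apart at 2 of 64, against 2.96%.

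Between SDS30 and SDS10, which share no library, 22 of 64 summits (34.4%) had a log2 fold change below 0, against 50.1% of all summits, with a median of 0.07. At the strongest summits 3 of 7 genes were below 0, against 68.3% of protein-coding genes. These 2 sets differ in level, since the members stood at percentiles 4.49 (Mag) to 52.6 (Tspan2) of the latter in control. The fall over all genes also depended on scaling. The median log2 fold change of all gene sums was -0.031 in the main fit and -0.0014 with cyclic loess. Whether the share below 0 goes with signal level was not tested. Again 0 of 64 passed the adjusted threshold (0% of all summits), 4 of 64 (6.25%) had an unadjusted p under 0.05 against 5.12%, and the groups were apart at 1 of 64 against 0.72%. The first 2 comparisons share the control libraries and the third shares SDS10 and SDS30 with them, so their counts are not separate evidence.

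Over all 152270 summits, limma gave an unadjusted p under 0.05 to 4891, 5194 and 7795, in the order of the comparisons above. edgeR's quasi-likelihood test and DESeq2 on the recovered reads also called 0 summits in each comparison, with 4599, 4933 and 6838 (edgeR) and 5410, 5753 and 7795 (DESeq2) below an unadjusted p of 0.05. Between SDS30 and SDS10, DESeq2 gave no adjusted p for 121039 summits. A 95% interval within 1 log2 unit of 0 on both sides was obtained for 49, 51 and 60 of the 64 member summits. The median distance from the fold change to the end of its interval was 0.62 in the comparisons with control and 0.53 between SDS10 and SDS30. These widths are before adjustment and are not limits of detection. Larger changes were also not called, such as 0.72 at Ppp1r14a at 3085 bp in SDS30 against SDS10 (limma, adjusted p = 0.963).

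**Figure D4:**
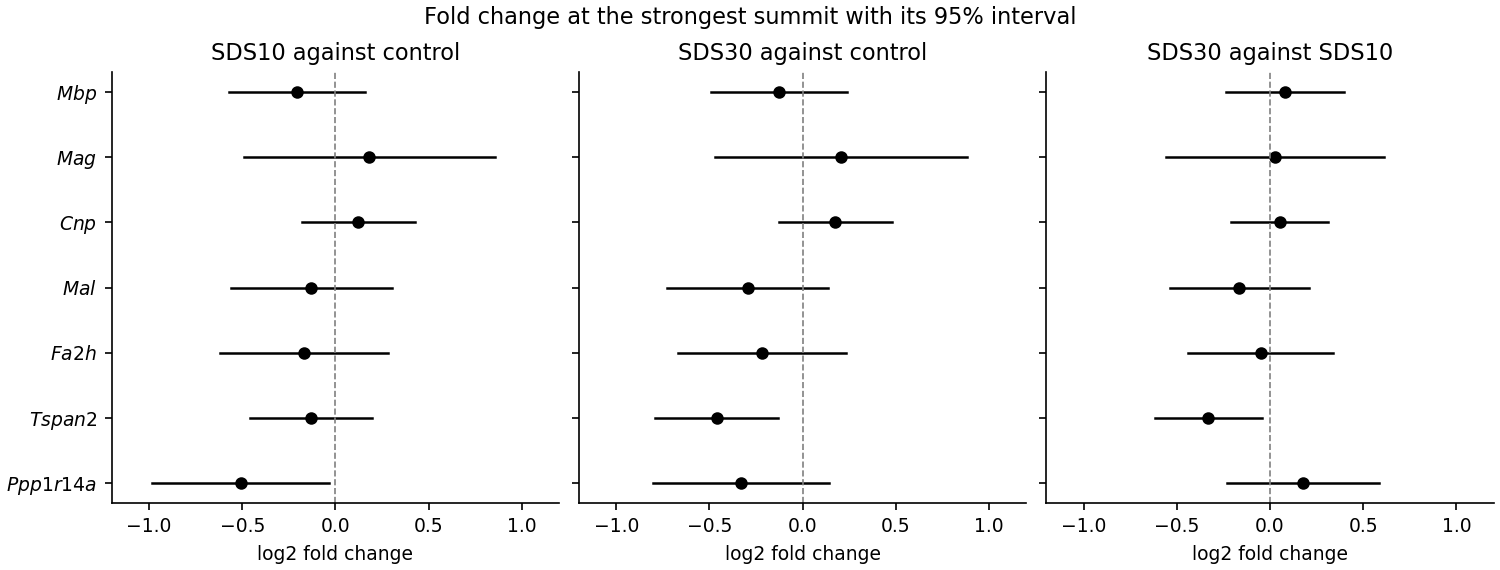
Log2 fold change (horizontal axis) at the strongest summit of the 7 genes with its 95% interval from limma, for the 3 comparisons. The intervals exclude 0 for Ppp1r14a in SDS10 against control (-0.98 to -0.04) and for Tspan2 in SDS30 against control (-0.79 to -0.13) and against SDS10 (-0.62 to -0.05), before adjustment for the 152270 summits tested.

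Adding up the summits of each gene gave 1 value per gene and library. Of the 7 sums, 0 passed the adjusted threshold in any comparison, as did 0% of the 15202 gene sums in each. In SDS10 against control 1 of 7, Tspan2, had an unadjusted p under 0.05 (3.53% of all gene sums). In SDS30 against control 0 of 7 did (2.27%), and in SDS30 against SDS10 0 of 7 did (6.2%). The groups overlapped at all 7 sums in all 3 comparisons, against 4.07%, 2.28% and 0.967% of gene sums with groups apart.

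The sums varied more between libraries of 1 group than between groups. At Mbp the control sums were 518, 731 and 610, the SDS10 sums 597, 761, 577, 584 and 619, and the SDS30 sums 661, 629, 509, 589 and 695. At Mal the control sums were 493, 327 and 329, the SDS10 sums 367, 223, 316, 368 and 355, and the SDS30 sums 301, 398, 380, 423 and 352. At Ppp1r14a they were 250, 143 and 173 in control, 181, 88.9, 119, 188 and 189 in SDS10, and 143, 155, 171, 204 and 171 in SDS30. At Fa2h they were 230, 348 and 284 in control, 304, 371, 273, 269 and 266 in SDS10, and 261, 206, 272, 238 and 346 in SDS30. SDS10 replicate 2 was thus the highest of 13 at Mbp and Fa2h and the lowest at Mal and Ppp1r14a. Control replicate 1 was the highest at Mal and Ppp1r14a.

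This order of libraries was shared with other genes. The first principal component of the log2 sums of all 15202 genes, these 7 among them, is the axis along which the libraries differed most and held 36.8% of their variance. Control replicate 1 had a score of -0.37, control replicate 2 of 0.30 and SDS10 replicate 2 of 0.62, so the axis ran within the groups. Among the 7 genes, 1 relation each was computed, with permutation p-values adjusted over the 7. Mbp had a Pearson r of 0.87 with the score over the 13 libraries (permutation p = 6e-05, adjusted p = 0.00021, Spearman's rho 0.75, permutation p = 0.00426, adjusted p = 0.00994). Fa2h had an r of 0.82 (permutation p = 0.00066, adjusted p = 0.00154, rho 0.76, permutation p = 0.00309, adjusted p = 0.00994). Mal had an r of -0.89 (permutation p = 2e-05, adjusted p = 0.00014, rho -0.91, permutation p = 4e-05, adjusted p = 0.00028). Ppp1r14a had an r of -0.77 (permutation p = 0.00192, adjusted p = 0.00336, rho -0.67, permutation p = 0.0148, adjusted p = 0.0258).

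Mag (r = -0.56, permutation p = 0.0452, adjusted p = 0.0633, rho -0.54, permutation p = 0.0620) and Cnp (r = -0.49, permutation p = 0.0861, adjusted p = 0.1005, rho -0.48, permutation p = 0.0983) did not pass after adjustment, nor did Tspan2 (r = -0.03, permutation p = 0.927, adjusted p = 0.927, rho -0.09, permutation p = 0.764). With scaling by total reads, Mag (r = -0.60, permutation test, adjusted p = 0.0416) and Cnp (r = -0.57, adjusted p = 0.0495) passed. Mag also passed without control replicate 2 (r = -0.62, permutation test, adjusted p = 0.0413) and without SDS10 replicate 1 (r = -0.62, adjusted p = 0.0450). Without the 2 libraries farthest from the median score, r was 0.76 at Mbp, 0.71 at Fa2h, -0.79 at Mal, -0.46 at Ppp1r14a, -0.51 at Mag, -0.50 at Cnp and 0.38 at Tspan2. The relation of Ppp1r14a rested in part on SDS10 replicate 2, since without that library r was -0.57 and did not pass. With the group means removed, r was 0.87 at Mbp, 0.82 at Fa2h, -0.93 at Mal and -0.80 at Ppp1r14a, so the relation held within groups. Of all genes, 4.29% had a larger absolute r than Mal, 6.17% than Mbp, 10.3% than Fa2h and 13.9% than Ppp1r14a. With the deposited scaling and all libraries, the share was 35.3% for Mag, 43.0% for Cnp and 96.7% for Tspan2. Relations as large as those of Mag and Cnp were thus common among all genes.

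**Figure D5:**
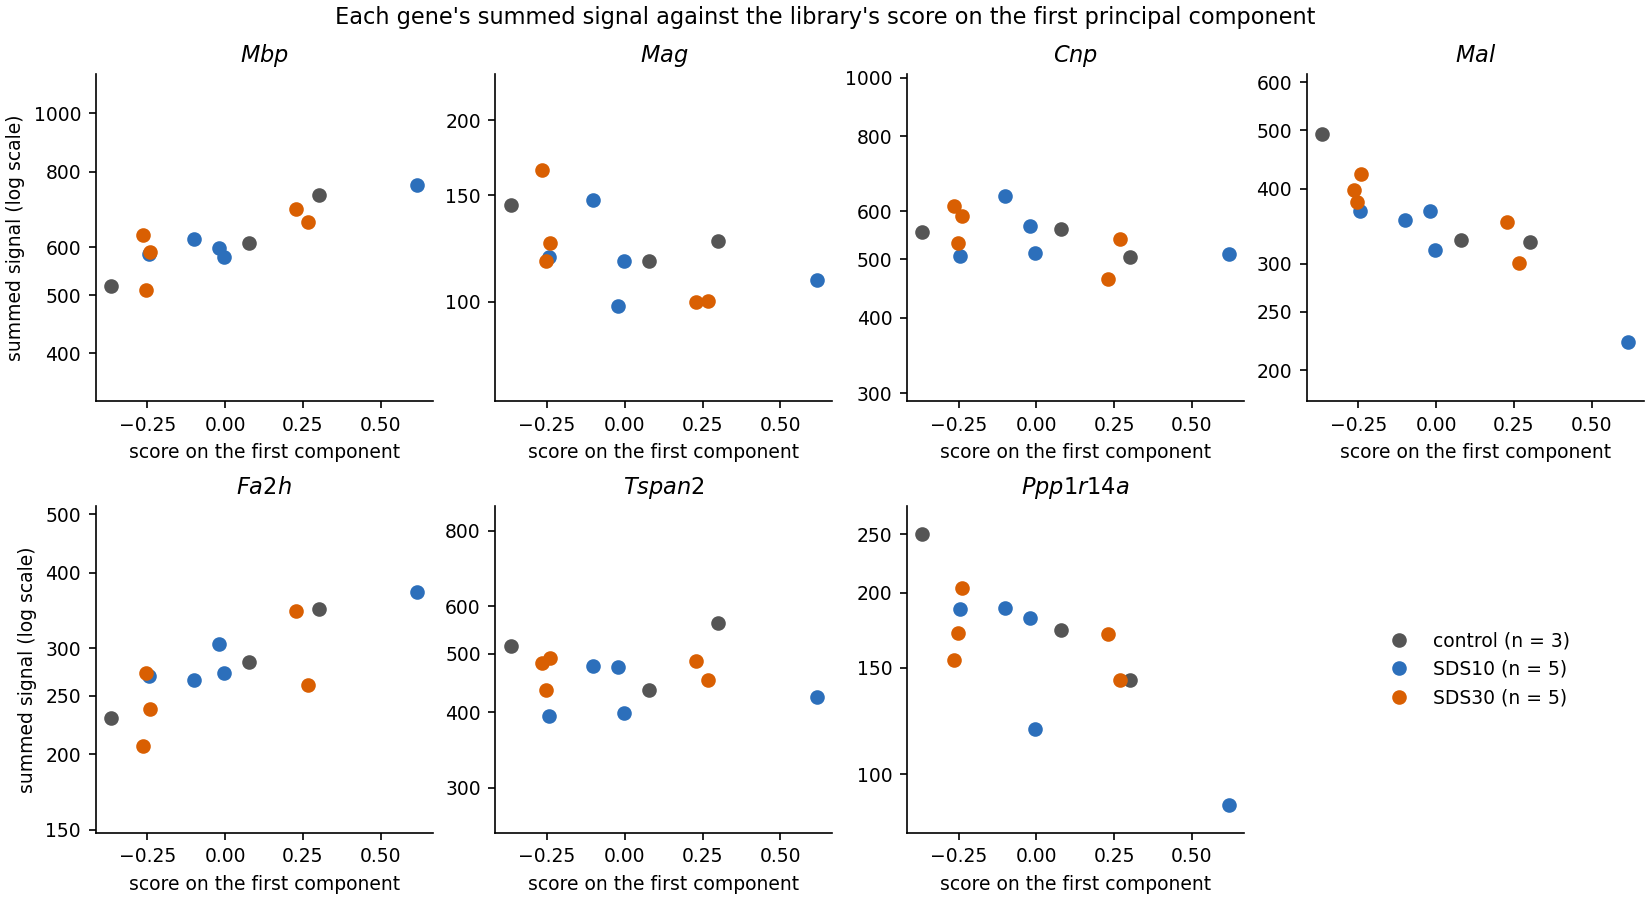
Summed signal of each gene (vertical axis, log scale) against the library's score on the first principal component of all gene sums (horizontal axis), with 1 dot per library in control (n = 3), SDS10 (n = 5) and SDS30 (n = 5). Mbp and Fa2h go up with the score (r = 0.87 and 0.82), Mal and Ppp1r14a go down (r = -0.89 and -0.77) and Tspan2 shows no trend (r = -0.03).

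The same score went with the genes of some other cell types and not with those of others. It was made from the sums of all genes, those of these lists among them, and the permutation p-values do not allow for that. The share of other gene lists with as large an r was not computed. The summed signal of the 12 excitatory neuron genes had an r of 0.92 with it (permutation p = 2e-05, adjusted over 9 lists 0.00018, rho 0.89, permutation p = 8e-05, r = 0.84 without the 2 farthest libraries) and ranged from 6735 to 9401 in control, 7622 to 11561 in SDS10 and 7482 to 10371 in SDS30. The highest value was in SDS10 replicate 2 and the lowest in control replicate 1. The 12 endothelial genes had an r of -0.82 (permutation p = 0.00062, adjusted p = 0.00279, rho -0.77, permutation p = 0.00263, r = -0.72 without the 2) and ranged from 4167 to 5719, 3856 to 5280 and 3755 to 5506. The remaining lists did not pass in the permutation test. For the other myelin and mature oligodendrocyte genes r was -0.33 (adjusted p = 0.401). It was -0.61 for lineage factors (0.0583), 0.19 for precursor genes (0.687) and -0.64 for astrocyte genes (0.0557). Microglia genes had 0.44 (0.243), inhibitory neuron genes 0.09 (0.800) and housekeeping genes 0.08 (0.800). SDS10 replicate 2 held 5677624 reads, with 13.3% of its signal in the strongest 5% of summits, against 11.3% to 12.7% in the other libraries. What part cell makeup or library quality had in the values of the myelin genes was not tested.

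Between pairs of the 7 genes, 21 relations were computed. Mal and Ppp1r14a had an r of 0.91 (permutation p = 0.00011, adjusted p = 0.00231, rho 0.80, permutation p = 0.00189, adjusted p = 0.0397), which was 0.68 without the 2 libraries farthest from the median of Mal and 0.90 with group means removed. The other 20 did not pass after adjustment, among them Mbp and Mal (r = -0.72, permutation p = 0.00519, adjusted p = 0.0514, rho -0.61, permutation p = 0.0303) and Mbp and Fa2h (r = 0.65, permutation p = 0.0163, adjusted p = 0.0514, rho 0.46, permutation p = 0.120). Mal and Fa2h (r = -0.69), Cnp and Fa2h (-0.67), Mag and Fa2h (-0.65) and Mbp and Ppp1r14a (-0.64) had the same adjusted p of 0.0514. Failing the threshold with 13 libraries does not show that a pair is unrelated. Mbp and Fa2h went up with the first component while Mal and Ppp1r14a went down, so the genes did not vary as 1 block across libraries. The share of all gene pairs with an r as large as that of Mal and Ppp1r14a was not computed. With the mean of the 7 standardised strongest summits, the single genes had an r from -0.11 (Cnp) to 0.68 (Tspan2). Each gene is itself part of this mean, which raises its r.

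The 4 other protein-coding genes whose strongest summit was most like that mean over the 13 libraries, of 14924 ranked, were Npm1, a nucleolar chaperone (r = 0.90), Mtmr14, a phosphoinositide phosphatase (r = 0.80), Taf5l, a subunit of histone acetyltransferase complexes, and Urb2, a ribosome biogenesis factor, the last 2 sharing 1 summit (r = 0.80). Npm1 gave 115 ± 15.2 in control, 102 ± 5.23 in SDS10 and 98.3 ± 7.99 in SDS30 (SD, n = 3, 5 and 5). They were chosen as the highest of many, so the r values describe the choice.

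Of 37 other genes of myelin and mature oligodendrocytes, 33 had a summit, and Opalin, Ermn and Plxnb3 were among those without one. None of their strongest summits passed the adjusted threshold in limma. Among the strongest summits of all protein-coding genes, 46.7% were below 0 in SDS10 against control (median 0.01). The share was 65.8% in SDS30 against control (median -0.07) and 68.3% in SDS30 against SDS10 (median -0.08). In SDS10 against control 13 of the 33 were below 0 and 20 above, with a median of 0.04 and 1 unadjusted p under 0.05. That was Tppp, a tubulin-binding protein of oligodendrocytes, at 79.4 ± 10.6 in control, 109 ± 23.7 in SDS10 and 99.6 ± 6.69 in SDS30 (log2 fold change 0.44 ± 0.17, unadjusted p = 0.0121, adjusted p = 0.9999). Septin4 had a log2 fold change of 0.22 ± 0.13 (unadjusted p = 0.117). In SDS30 against control 18 were below 0 and 15 above (median -0.01), and Tppp (0.33 ± 0.17, unadjusted p = 0.0552), Qdpr, a pteridine reductase (-0.32 ± 0.16, unadjusted p = 0.0574), and Car2, the carbonic anhydrase of oligodendrocytes (-0.30 ± 0.19, unadjusted p = 0.121), had the smallest p-values. In SDS30 against SDS10 18 were below 0 and 15 above (median -0.03). There Car2, at 89.2 ± 13.4 in control, 107 ± 13.2 in SDS10 and 73.9 ± 18.9 in SDS30, had a log2 fold change of -0.55 ± 0.16 (unadjusted p = 0.00174, adjusted p = 0.963), followed by Qdpr (-0.28 ± 0.14, unadjusted p = 0.0537) and the connexin gene Gjc3 (-0.56 ± 0.33, unadjusted p = 0.0953).

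The 11 transcription factors of the oligodendrocyte lineage all had a summit. Against control, 8 were below 0 and 3 above in SDS10 (median -0.09) and 6 and 5 in SDS30 (median -0.10), and between SDS30 and SDS10 the counts were 4 and 7 (median 0.10), with none past the adjusted threshold in limma. Over all protein-coding genes, 46.7%, 65.8% and 68.3% were below 0 in these comparisons, in the same order. Myrf, which drives myelin genes, gave 72.6 ± 11.1 in control, 53.0 ± 7.22 in SDS10 and 59.3 ± 21.1 in SDS30, a log2 fold change of -0.44 ± 0.23 (unadjusted p = 0.0604) and -0.35 ± 0.23 (unadjusted p = 0.138) against control. Zfp488, a factor of oligodendrocyte differentiation, gave 49.9 ± 7.43, 37.7 ± 8.96 and 34.5 ± 4.46, with all 5 SDS30 libraries below all 3 controls (-0.52 ± 0.24, unadjusted p = 0.0406, adjusted p = 0.99998) and -0.42 ± 0.24 in SDS10 (unadjusted p = 0.0976). St18 had -0.62 ± 0.37 in SDS10 against control (unadjusted p = 0.102) and 0.34 ± 0.32 in SDS30 against SDS10 (unadjusted p = 0.291). Zfp536 had 0.20 ± 0.15 in SDS30 against control (unadjusted p = 0.202) and 0.29 ± 0.13 against SDS10 (unadjusted p = 0.0376), where Sox8 had -0.20 ± 0.18 (unadjusted p = 0.267).

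Of 10 oligodendrocyte precursor genes 8 had a summit, and Gpr17 and Neu4 had none. In both comparisons with control 5 were below 0 and 3 above (medians -0.18 and -0.05), in SDS30 against SDS10 4 and 4 (median 0.02), and none passed the adjusted threshold in limma. The shares below 0 over all protein-coding genes were 46.7% and 65.8% against control and 68.3% in SDS30 against SDS10. Pdgfra, the receptor that marks precursors, gave 66.8 ± 12.0 in control, 59.1 ± 12.6 in SDS10 and 47.9 ± 8.23 in SDS30, with -0.47 ± 0.21 in SDS30 against control (unadjusted p = 0.0331, adjusted p = 0.99998) and -0.29 ± 0.18 against SDS10 (unadjusted p = 0.125). The proteoglycan gene Cspg4 had -0.45 ± 0.28 in SDS10 (unadjusted p = 0.113) and -0.29 ± 0.28 in SDS30 against control (unadjusted p = 0.297). C1ql1 had -0.30 ± 0.20 in SDS10 (unadjusted p = 0.150) and -0.41 ± 0.20 in SDS30 against control (unadjusted p = 0.0564). Sox6 had -0.25 ± 0.19 in SDS10 against control (unadjusted p = 0.201) and 0.16 ± 0.17 in SDS30 against SDS10 (unadjusted p = 0.339), where Cacng4 had 0.17 ± 0.20 (unadjusted p = 0.393).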

How the data were processed

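H3K4me3 ChIP-seq was made from prefrontal cortex chromatin cut with micrococcal nuclease, and 13 libraries were used, while the input library was not used here. The deposited table gives a normalised signal per summit and library, which the authors made by dividing reads by 1 factor per library. All values (100%) were whole multiples of 1 read within 0.001, so the reads were recovered. The deposited peak score was not tested. The tools named in the submitters' processing notes are Bowtie2, MACS2, Trimmomatic and DESeq2, and the builds are GRCm38.p5 and mm10. What each did, tool versions, the counting window and the handling of duplicates were not given in the sources used here.

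Coordinates are those of the deposited table (mm10), and gene boundaries are RefSeq's on GRCm38.p6, a patch release with the same primary chromosomes. Which exon or intron a summit lies in was not analysed here. All 139 listed symbols matched. log2(value + 1) was fitted with limma 3.58.1 (trend, R 4.3.3) over all 3 groups after edgeR's filterByExpr kept 152270 summits (937 left out) and 15202 gene sums (46 left out), with Benjamini-Hochberg adjustment at 0.05. Fold changes are on the log2(value + 1) scale and ± after them is the SE. Permutation p-values used 100000 resamples and were two-sided, with a smallest possible value of 1e-05. edgeR 4.0.16 and DESeq2 1.42.0 on reads, other scalings, filters and pseudocounts, leaving out each library, and a replicate block were alternatives. The fit was also run on simulated data, whose outcome is not reported here and is not used as a measure of detection.

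The rule for named genes took all 9 genes with their strongest summit and the one nearest to the annotated start, the other summits by the smallest p per comparison, up to 3 genes per related list and comparison by smallest p, and the 4 genes most alike. Some genes of the related lists are not reported here. The remaining summits with an unadjusted p under 0.05, the Mbp summits at 55, 437 and 84217 bp and the Tspan2 summit at -247 bp were chosen after their values were seen. The members and lists were chosen with earlier results of these data known.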

Additional observations from a re-analysis of the deposited data

Results flagged for a closer look

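Within the defeat groups, 28 sets of 5 libraries (strongest summit and sum of 7 genes in SDS10 and SDS30) were examined for 1 library far from the others, and 3 had one, where chance gives about 1 in 20. At the strongest summit of Tspan2, SDS30 replicate 3 had 57.8, with the next library at 74.97. At the strongest summit of Ppp1r14a, SDS10 replicate 2 had 28.2, with the next at 60.2. The summed signal of Mbp was 761 in SDS10 replicate 2, with the next at 619. SDS10 replicate 2 also had the highest score on the first principal component (0.62).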

How the results depend on the processing

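No setting called a member summit, any summit or any gene sum. Counts and medians stayed within their limits 194 times without 1 library and 206 times under other settings, with 1 exception each. Of the 7 genes, 3 were below 0 at their strongest summit in SDS30 against SDS10, 3 to 5 without 1 library (5 without SDS10 replicate 5), and 1 of 5 at the summit nearest to the start. Signs turned as follows, none of them past the threshold. Mag at its strongest summit turned in SDS10 against control with edgeR (-0.00624) and DESeq2 (-0.000243), and in SDS30 against SDS10 with cyclic loess scaling (-0.0478) and with the first component as a covariate (-0.0400, an alternative chosen after seeing the data). Fa2h turned in the latter (0.0462). In SDS30 against control, the summits nearest to the start turned at Cnp with cyclic loess (0.0255) and the replicate block (0.0477) and at Tspan2 with both (0.0288 and 0.0279). Without 1 library, values in SDS10 against control ran from -0.20 to 0.58 at Mag and -0.34 to 0.0265 at Fa2h, and at the summit nearest to the start of Ppp1r14a from -0.34 to 0.20. In SDS30 against control they ran from -0.18 to 0.61 at Mag, and nearest to the start from -0.16 to 0.0402 at Cnp, -0.36 to 0.19 at Mal and -0.0959 to 0.0442 at Tspan2. In SDS30 against SDS10 they ran from -0.00823 to 0.19 at Mbp, -0.17 to 0.13 at Mag (-0.00158 to 0.35 nearest to the start), -0.00371 to 0.11 at Cnp, -0.16 to 0.12 at Fa2h and -0.0542 to 0.29 at Ppp1r14a. The r of Tspan2 with the first component ran from -0.30 to 0.26. The causes were not tested.

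Same-numbered libraries of different groups correlated at -0.29 to 0.37 (11 pairs, 3 over 0.1). Those with different numbers correlated at -0.43 to 0.38 (44 pairs, 15 over 0.1). Replicate numbers thus showed no sign of pairing, but these values cannot exclude it. With the replicate block 0 summits were called in each comparison, with 5375, 4812 and 6630 below an unadjusted p of 0.05. The control group had 3 libraries, and at Mag the strongest summit rested on as few as 12 reads.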
